A study of Homo sapiens with 8 samples.

Results

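The genes of the chromosomal passenger complex, AURKB, INCENP, BIRC5 and CDCA8, were followed in RNA from hTERT-RPE1 cells, with and without immunoprecipitation (IP) of hnRNP U. The 4 genes were taken by symbol from a table of 13471 genes. All 4, like every other gene of the table, had a value above 0 in each library. Each share of all genes given below is thus a share of genes with a value above 0 in every library. The rule uses no measured value, but the set was proposed with earlier results of these data known. hTERT-RPE1 cells derive from human retinal pigment epithelium and carry a telomerase transgene, and hnRNP U, also called SAF-A, is a nuclear protein that binds RNA and chromatin. The series' title names Aurora B, the kinase of the complex, as a kinase that phosphorylates hnRNP U. Interphase cells were held for 24 h in 2 mM thymidine, which stalls DNA replication. Mitotic cells had the same thymidine block, a release of 6 h without thymidine, and an overnight hold in STLC (S-trityl-L-cysteine), which inhibits the mitotic kinesin Eg5. Each phase has 2 libraries of RNA taken without IP and 2 of RNA from an IP with an antibody to hnRNP U, so 8 libraries stand in 4 groups. All groups came from 1 cell line, were lysed in the same detergent buffer and cleared by centrifugation, and share the thymidine treatment. The labels do not say whether the replicates came from separate cultures, so p-values measure only the spread between these libraries, which may be technical.

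The chromosomal passenger complex is assembled on INCENP, a long scaffold protein whose C-terminal end binds and activates the kinase Aurora B, the product of AURKB. The N-terminal end of INCENP binds survivin (BIRC5) and borealin (CDCA8), which bring the complex to chromatin and to the centromere early in mitosis. Aurora B phosphorylates histone H3 and kinetochore proteins, releases wrong attachments to the spindle, and later moves to the midzone, where it acts in cytokinesis. Transcription of such genes rises towards G2 and mitosis and is repressed earlier in the cycle through CHR elements (cell cycle genes homology regions) in their promoters.

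The unit throughout is FPKM, in which fragment numbers are divided by the length of the transcript and by library size. Levels can thus be set side by side between genes, though trends with length and GC content may remain. On the log2 scale, the Pearson correlation of replicates over genes was between 0.989 and 0.995. Sequencing depth, read from the steps of low values, ran from 0.638 to 1.19 relative to replicate 1 of interphase without IP. Without IP, the 10 highest genes held 58.4% to 63.0% of a library's FPKM sum, and with the IP 12.4% to 20.6%. The part of this difference in the results was not tested, beyond the scaling alternatives given below. Of the markers of retinal pigment epithelium, MITF (7.06 to 33.2 FPKM), OTX2 (3.33 to 22.2 FPKM), KRT8 and KRT18 (each at least 18.5 FPKM) were present, and PMEL stayed at or below 0.144 FPKM. The markers RPE65, RLBP1, BEST1 and TYR were not among the 13471 genes. TERT, the gene of the telomerase subunit, stayed at or below 0.359 FPKM. Whether reads of the transgene entered this value was not tested. No control-antibody IP enters these comparisons, and RNA bound through hnRNP U cannot be told apart from RNA bound to beads or antibody.

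AURKB lies on chromosome 17 (8204733 to 8210600, minus strand, GRCh38), and BIRC5 on the same chromosome (78214186 to 78225636, plus strand). INCENP lies on chromosome 11 (62123973 to 62153163, plus strand) and CDCA8 on chromosome 1 (37692418 to 37709719, plus strand). All are protein-coding in GENCODE release 29, the intervals in the file exceed the annotation by at most 29 bases, and 0 other rows of the table overlap any of them. Their longest annotated transcripts differ: 1254 nt with 55.6% GC for AURKB, 2469 nt with 51.4% for CDCA8, 2711 nt with 52.2% for BIRC5 and 3964 nt with 59.6% for INCENP. AURKB is thus in the 7.46th percentile of transcript length among annotated genes of the table and INCENP in the 55.7th.

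The 4 mRNAs were present at very unequal levels. Without IP in interphase, BIRC5, whose protein survivin binds phosphorylated histone H3, had 68.2 and 73.7 FPKM in replicates 1 and 2. AURKB had 21.5 and 18.3 FPKM and CDCA8 16.7 and 16.8 FPKM. The libraries of these neighbours did not overlap, but the gap between 18.3 and 16.8 FPKM is smaller than the SD of AURKB (2.25). INCENP was the lowest, at 3.64 and 3.96 FPKM. Without IP in mitosis, BIRC5 had 162 and 159 FPKM. CDCA8 followed with 59.0 and 58.0 FPKM, AURKB with 41.7 and 35.1 FPKM, and INCENP with 20.01 and 16.3 FPKM. CDCA8 and AURKB thus exchanged places in the order between the phases, with ranges that did not overlap in mitosis.

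**Figure D1:**
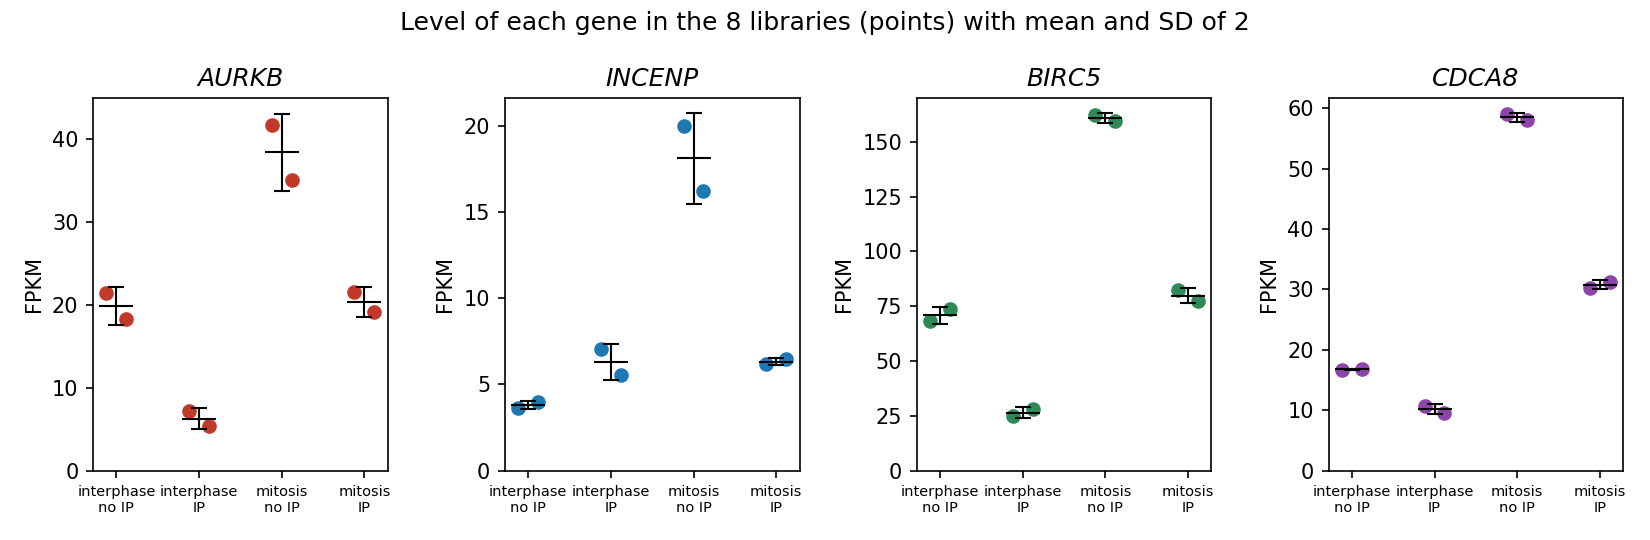
FPKM of AURKB, INCENP, BIRC5 and CDCA8 in each of the 8 libraries; points are libraries (replicate 1 left, replicate 2 right), horizontal marks and bars are the mean and SD of 2. BIRC5, CDCA8 and AURKB are lowest in the interphase IP and highest in mitosis without IP, whereas INCENP is lowest in interphase without IP (3.64 and 3.96 FPKM) and stands apart in mitosis without IP (20.01 and 16.3 FPKM).

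The comparison of mitosis with interphase without IP asked how the level of each mRNA differed between the arrested states. All 4 genes were higher in mitosis, where 26.2% of the 13471 genes were called higher, 25.5% lower and 51.7% in either direction (limma, adjusted p below 0.05). INCENP rose from 3.80 ± 0.226 to 18.1 ± 2.64 FPKM (mean ± SD, n = 2), 4.77-fold. CDCA8 rose from 16.8 ± 0.0853 to 58.5 ± 0.712 FPKM, 3.49-fold. BIRC5 rose from 70.9 ± 3.91 to 161 ± 2.19 FPKM, 2.27-fold, and AURKB from 19.9 ± 2.25 to 38.4 ± 4.65 FPKM, 1.93-fold. The groups did not overlap for any of the 4 genes. The share of all genes without overlap was not counted, here or for the IP below, so this only describes the libraries. The test used log2(FPKM + 1), a scale on which changes of low genes come out too small. The log2 fold changes were 1.99 for INCENP (SE 0.14, limma adjusted p 2.07e-05), 1.74 for CDCA8 (SE 0.09, 4.41e-06), 1.17 for BIRC5 (SE 0.11, 7.06e-05) and 0.92 for AURKB (SE 0.15, 0.00119). The 95% intervals of the scaffold (1.66 to 2.31 for INCENP) and of the kinase it binds (0.58 to 1.26 for AURKB) did not overlap. The difference between the genes was not tested. In bulk RNA, a larger share of cells with the mRNA and more mRNA in each cell cannot be told apart.

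Promoter sequence is shown because the 4 genes were all higher in mitosis without IP. No window was at hand for BIRC5, so its promoter was not searched. RefSeq windows of 250 bases before to 50 after a start site (GRCh38.p14) were at hand for CDCA8 and INCENP, with 1 window each, and for AURKB, with 2 overlapping windows. They were searched on both strands for the CHR hexamer TTTGAA, its variant TTCGAA and the CCAAT box, the site of the factor NF-Y. CDCA8 and INCENP each held 1 TTTGAA, in the same orientation as the gene and starting 23 and 10 bases before the RefSeq start. Below, 30 bases around each are given 5′ to 3′ on the gene's strand with the hexamer in capitals, at chr1:37692481-37692510 for CDCA8 and chr11:62123989-62124018 for INCENP.
CDCA8: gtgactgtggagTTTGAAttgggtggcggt
INCENP: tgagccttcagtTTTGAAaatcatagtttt
Both stretches overlap exons that GENCODE gives to the same gene from an earlier start. Of all 35116 windows in the RefSeq table, 15.2% held TTTGAA, 1.45% held TTCGAA and 34.6% held CCAAT on either strand. None of the windows of these 3 genes held TTCGAA.

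CDCA8 and INCENP also had 3 matches each to CCAAT. In CDCA8, 1 of them, read on the minus strand, shares 1 base with TTTGAA. The 2 windows of AURKB held neither TTTGAA nor TTCGAA and shared 1 CCAAT match on the strand opposite to the gene, given below as ATTGG at chr17:8210362-8210390. These windows start inside the gene as GENCODE annotates it (start at 8210600), so they do not cover the region before that start. For CDCA8 and INCENP, the stretch of the window that lies in no annotated exon is also given, at chr1:37692266-37692417 and chr11:62123768-62123972, with CCAAT matches on either strand in capitals.
AURKB: accagcgcccagATTGGggctagtgtgct
CDCA8: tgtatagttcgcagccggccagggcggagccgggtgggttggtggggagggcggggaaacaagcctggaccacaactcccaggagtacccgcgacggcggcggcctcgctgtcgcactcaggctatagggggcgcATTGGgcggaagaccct
INCENP: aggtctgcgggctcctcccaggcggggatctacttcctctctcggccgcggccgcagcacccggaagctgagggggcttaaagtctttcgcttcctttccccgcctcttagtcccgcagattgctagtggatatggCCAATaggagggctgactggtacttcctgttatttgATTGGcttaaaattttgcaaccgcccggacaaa
A match is a description of these letters and not evidence of a bound site.

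The comparison of the IP with RNA without IP in interphase asked which of these mRNAs were at a higher or lower level with hnRNP U in thymidine-arrested cells. The labels do not say whether the RNA without IP is the input of the IP, so here and in mitosis the folds compare 2 kinds of library and are not shown to be enrichment over input. INCENP was higher in the IP and the other 3 genes were lower, where 37.6% of all genes were called higher and 37.0% lower (74.6% in either direction). AURKB had 7.14 and 5.40 FPKM in the IP against 21.5 and 18.3 FPKM without it, a 3.17-fold lower mean. BIRC5 had 24.7 and 28.1 FPKM against 68.2 and 73.7 FPKM, a 2.68-fold lower mean. CDCA8 had 10.7 and 9.59 FPKM against 16.7 and 16.8 FPKM, a 1.65-fold lower mean. INCENP had 7.04 and 5.54 FPKM against 3.64 and 3.96 FPKM, a 1.65-fold higher mean. No pair of groups overlapped, a description without a count over all genes. The limma log2 fold changes were -1.53 for AURKB (SE 0.15, adjusted p 1.75e-05), -1.39 for BIRC5 (SE 0.11, 4.29e-06), -0.67 for CDCA8 (SE 0.09, 0.000159) and 0.60 for INCENP (SE 0.14, 0.00451). In the authors' deposited table the IP to total RNA ratio of INCENP was 1.93 in replicate 1 and 1.40 in replicate 2, and that of AURKB was 0.333 and 0.296.

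In interphase the calls for AURKB and CDCA8 depended on the correction for transcript length and GC content. With trends of each library on length and GC removed, the log2 fold change of AURKB was -0.04 (limma adjusted p 0.833) and that of CDCA8 -0.19 (0.0982), while BIRC5 kept -0.93 (0.000106) and INCENP had 1.36 (2.16e-05). Median centring of the libraries raised the all-gene median log2 fold change by 0.12 and left the 4 calls in place.

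In mitosis all 4 mRNAs were lower in the IP than without it, where 31.7% of all genes were called lower and 32.8% higher (64.5% in either direction). INCENP had 6.16 and 6.46 FPKM in the IP against 20.01 and 16.3 FPKM without it, the largest of the 4 decreases, with a 2.87-fold lower mean. BIRC5 had 82.2 and 77.3 FPKM against 162 and 159 FPKM, a 2.02-fold lower mean. CDCA8 had 30.3 and 31.3 FPKM against 59.0 and 58.0 FPKM, a 1.90-fold lower mean. AURKB had 21.6 and 19.1 FPKM against 41.7 and 35.1 FPKM, a 1.89-fold lower mean. Groups did not overlap for any of the 4 genes, again without a count over all genes. The limma log2 fold changes were -1.38 for INCENP (SE 0.14, adjusted p 4.92e-05), -1.003 for BIRC5 (SE 0.11, 5.73e-05), -0.91 for CDCA8 (SE 0.09, 4.80e-05) and -0.88 for AURKB (SE 0.15, 0.000784). With length and GC trends removed, AURKB had -0.25 (adjusted p 0.149) and no longer passed, whereas INCENP (-0.87), BIRC5 (-0.81) and CDCA8 (-0.73) did.

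The difference between the IP effects of the phases was tested as an interaction. It passed for INCENP and AURKB, in opposite directions, where 47.1% of all genes were called (27.2% with a higher value in mitosis and 19.9% with a lower one). For INCENP the difference, mitosis minus interphase, was -1.98 (SE 0.20, limma adjusted p 0.000152, 95% interval -2.44 to -1.52), with -2.34 and -1.61 in the replicate pairs. This placed INCENP at the 0.958th percentile of all genes in this comparison. The range over the other settings, from -2.23 to -1.98, kept this direction and call, and so did each fit without 1 library (-2.13 to -1.83). AURKB had a difference of 0.64 (SE 0.21, adjusted p 0.0345), with a smaller decrease in the mitotic IP. This call is the weaker of the pair: it was 0.45 after quantile normalization (adjusted p 0.0938) and -0.21 with length and GC trends removed (adjusted p 0.411). It also missed the threshold without replicate 1 of interphase without IP (0.53), replicate 2 of the interphase IP (0.47), replicate 2 of mitosis without IP (0.52) or replicate 1 of the mitotic IP (0.56). For BIRC5 the difference was 0.39 (adjusted p 0.0635, 95% interval 0.04 to 0.74), and without replicate 2 of the interphase IP it was 0.48 with an adjusted p of 0.0394. For CDCA8 it was -0.23 (adjusted p 0.184, interval -0.53 to 0.07). CDCA8 passed with -0.44 after quantile normalization (adjusted p 0.0226) and with -0.54 when length and GC trends were removed (0.00929).

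**Figure D2:**
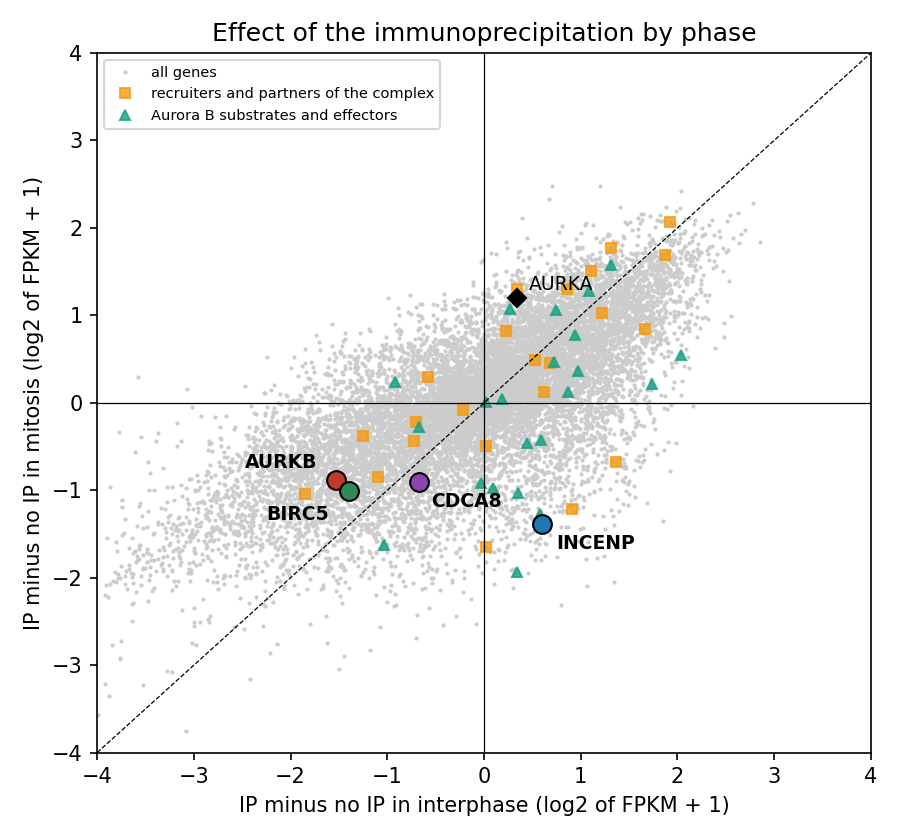
Log2 fold change of the IP in interphase (horizontal) against mitosis (vertical) for all genes (grey), the recruiters and partners (squares), Aurora B substrates and effectors (triangles), AURKA (diamond) and the 4 complex genes (large circles); 21 genes lie outside the axes, and the dashed line marks equal effects. AURKB, BIRC5 and CDCA8 lie in the lower left, and INCENP lies in the lower right at 0.60 and -1.38.

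Within the IP, mitosis was compared with interphase. AURKB, BIRC5 and CDCA8 were higher in the mitotic IP, where 35.8% of all genes were called higher and 25.6% lower (61.4% in either direction). AURKB went from 6.27 ± 1.23 to 20.3 ± 1.77 FPKM, 3.24-fold (log2 fold change 1.56, limma adjusted p 3.29e-05). BIRC5 went from 26.4 ± 2.40 to 79.8 ± 3.48 FPKM, 3.02-fold (1.56, adjusted p 5.88e-06). CDCA8 went from 10.2 ± 0.816 to 30.8 ± 0.73 FPKM, 3.03-fold (1.51, adjusted p 3.67e-06). INCENP had 6.29 ± 1.06 FPKM in interphase and 6.31 ± 0.209 FPKM in mitosis. Its log2 fold change was 0.01 (adjusted p 0.954), with a 95% interval of -0.32 to 0.34. The INCENP libraries of these groups overlapped, although its level without IP differed 4.77-fold between the same phases. The comparisons with and without IP are not independent of the interaction above, since they share its libraries.

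Among the groups, AURKB without IP in interphase (18.3 to 21.5 FPKM) and in the mitotic IP (19.1 to 21.6 FPKM) overlapped, between the high of mitosis without IP and the low of the interphase IP. For CDCA8 all 4 groups were separate, in the order mitosis without IP, mitotic IP, interphase without IP and interphase IP. BIRC5 had the same order, and its neighbours in the mitotic IP (77.3 to 82.2 FPKM) and in interphase without IP (68.2 to 73.7 FPKM) were close but separate. For INCENP the order was mitosis without IP, then both IP groups without separation, then interphase without IP. Separation of groups was not counted over all genes, so these orders only describe the libraries.

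The share of INCENP among the 4 transcripts differed between the groups. It made up 3.41 ± 0.143% of their summed FPKM in interphase without IP and 12.8 ± 1.97% in the interphase IP. In mitosis it made up 6.56 ± 0.716% without IP and 4.60 ± 0.297% in the IP. The ratio of AURKB to INCENP was 5.89 and 4.61 in interphase without IP, 1.01 and 0.975 in the interphase IP, 2.08 and 2.16 in mitosis without IP, and 3.50 and 2.95 in the mitotic IP. The kinase and scaffold mRNAs were thus close to equal in FPKM in the interphase IP libraries, and AURKB was at least 2.08 times INCENP in the others. Length and GC trends were not removed from these shares and ratios. Their removal gave -0.04 for AURKB and 1.36 for INCENP as log2 fold changes of the IP in interphase. The ratio of CDCA8 to AURKB was 0.779 and 0.922 in interphase without IP and at least 1.40 in the 6 other libraries. BIRC5, the most abundant, made up 49.8% to 65.3% of the sum in every library.

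**Figure D3:**
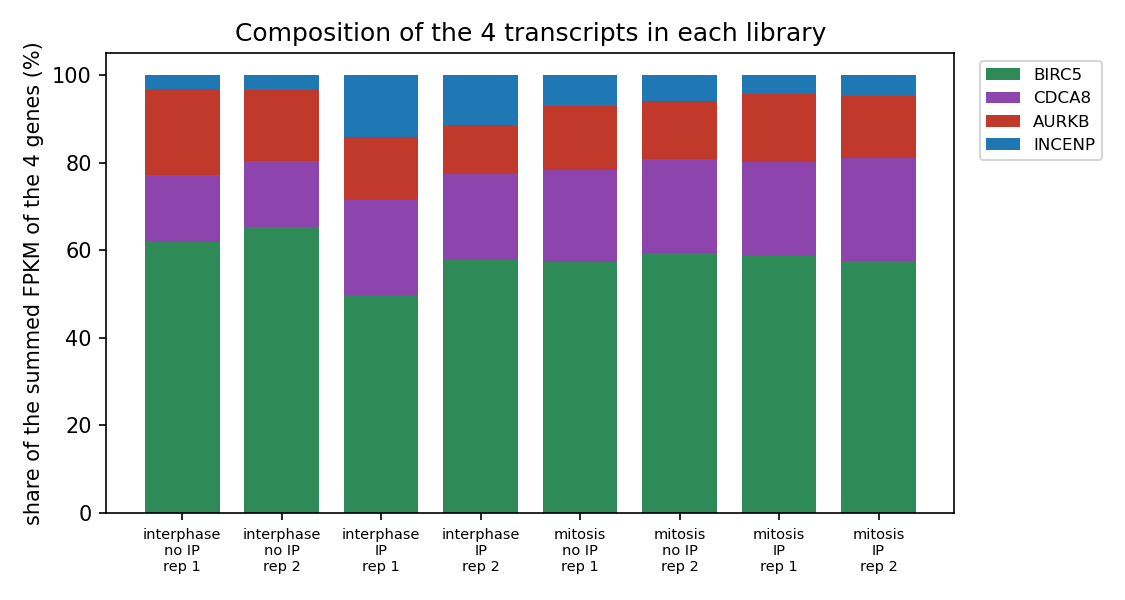
Share of the summed FPKM of the 4 genes held by each gene, in percent, for each of the 8 libraries. INCENP is the thinnest segment in 7 of the 8 libraries, and is 14.2% and 11.4% in the interphase IP against 3.31% and 3.52% in interphase without IP.

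To find the genes with the most similar profile, the root mean square difference between centred log2 profiles was taken over the 8 libraries, among 11271 genes with a mean of at least 1 FPKM. For INCENP the nearest were CIT, the gene of citron kinase, which acts in cytokinesis (0.15, r = 0.98), GTPBP4 (0.17) and CNTRL, which encodes the centrosomal protein centriolin (0.20). CIT had 3.19 FPKM in interphase without IP, 6.47 in the interphase IP, 16.6 in mitosis without IP and 6.47 in the mitotic IP, means close to those of INCENP. For CDCA8 the nearest were NDE1 (0.07), METTL13 (0.16) and CCNF, the gene of cyclin F (0.18). For BIRC5 they were CANT1 (0.07), XPO6 (0.14) and PHF19 (0.15), and for AURKB the small nucleolar RNA gene SNORD67 (0.10), the integrin gene ITGA5 (0.12) and the transporter gene SLC12A4 (0.13). The differences are in log2 units. Among the 4 genes themselves, AURKB and BIRC5 were closest (0.19, with BIRC5 in place 12 for AURKB), and INCENP and AURKB were farthest apart (0.79, place 3442 for INCENP seen from AURKB). These likenesses describe 8 libraries in 4 groups and have no test.

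AURKA, the gene of the related kinase Aurora A, was measured beside AURKB. It had 33.4 and 32.3 FPKM in interphase without IP and 179 and 207 FPKM in mitosis without IP. In the IP it had 39.5 and 44.3 FPKM in interphase and 411 and 477 FPKM in mitosis. For AURKA the mitotic IP had a log2 fold change of 1.20 (limma adjusted p 6.25e-05), against -0.88 for AURKB. In interphase AURKA had 0.34 (adjusted p 0.0408). That call was lost after quantile normalization (0.31, adjusted p 0.123) and without replicate 1 (0.36) or 2 (0.31) of interphase without IP or replicate 2 of the interphase IP (0.26). AURKA is not a subunit of the passenger complex and binds other activators, among them TPX2. HNRNPU, the gene of the precipitated protein and a substrate of Aurora B by the series' title, had log2 fold changes of the IP of 0.87 in interphase (adjusted p 4.20e-05) and 0.12 in mitosis (0.311), and with length and GC trends removed these were -0.68 and -0.63.

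The other genes of the pathway were counted by role, beside the background given above for each comparison. Of 23 recruiters and partners of the complex, 17 rose and 2 fell from interphase to mitosis without IP. Their median change was 1.00 on the log2 scale, against 0.00 over all genes. TTK, the gene of the checkpoint kinase MPS1 (2.78), BUB1B (2.67) and BUB1, whose kinase marks histone H2A for shugoshin (2.66), had the largest changes. The interphase IP had 13 of them higher and 6 lower (median 0.52), and the mitotic IP 12 higher and 8 lower (median 0.29). TTK rose most in both (1.93 and 2.07), and CBX5, the gene of HP1 alpha, had 1.87 and 1.69. Quantile normalization gave 9 higher and 8 lower in the mitotic IP. With length and GC trends removed, the interphase counts were 6 higher and 6 lower, with a median of -0.02. The mitotic counts were then 9 higher and 8 lower, with a median of 0.20. For the interaction, 6 recruiters and partners were called higher and 4 lower, and 10 and 4 with those trends removed. These counts were 5 and 5 with median centring, 5 and 6 with quantile normalization, and 6 and 6 with the replicate number as a block. The 3 largest differences were those of BUB1B (-2.13), SGO1, a shugoshin that protects centromeric cohesion (-2.04), and KIF20A, the kinesin that carries the complex to the midzone (-1.67). SGO1 had 6.40 FPKM without IP and 18.0 in the IP in interphase, and 28.1 and 17.2 in mitosis, the same directions as INCENP. File intervals of BUB1B, KIF20A, PLK1 and HASPIN exceed the annotated gene by over 1000 bases, so reads of neighbours may be included.

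Of 22 Aurora B substrates and effectors, 18 were higher and 1 lower in mitosis without IP (median 1.62), led by the chromokinesin gene KIF4A (2.88), KIF2C, whose product MCAK depolymerizes microtubules (2.79), and the kinetochore scaffold gene KNL1 (2.36). In the interphase IP 12 were higher and 3 lower (median 0.51), with KNL1 (2.03), TOP2A, the gene of topoisomerase II alpha (1.74), and ECT2, the RhoA exchange factor of cytokinesis (1.31), in front. After removal of length and GC trends, 7 were higher and 3 lower (median 0.16), and the call of ECT2 was lost (0.26, adjusted p 0.0894). In the mitotic IP 8 were higher and 8 lower (median 0.08), and quantile normalization (-0.05) and the removal of length and GC trends (-0.29) turned the median. ECT2 rose by 1.57 there, and KIF4A (-1.94) and the tubulin-binding gene STMN1 (-1.63) fell. The interaction was lower for 10 and higher for 2 of the 22, with a median of -0.60 against 0.07 over all genes. Removal of those trends gave 11 lower and 4 higher (median -0.45). KIF4A (-2.28), KIF2C (-1.84) and TOP2A (-1.53) had the largest differences.

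Of 15 genes of phosphatases that oppose Aurora B, 7 were higher and 0 lower in mitosis without IP (median 0.33). MKI67, whose product Ki-67 binds PP1 on mitotic chromosomes, had 2.93 and CDCA2, the gene of the PP1 subunit Repo-Man, had 2.36. In the interphase IP 9 were higher and 5 lower (median 0.82), beside 37.6% and 37.0% of all genes. With length and GC trends removed these counts were 7 and 5 (median 0.12). The mitotic IP had 6 higher and 6 lower (median 0.36), beside 32.8% and 31.7% of all genes. Removal of length and GC trends there gave 3 higher and 6 lower, with a median of -0.02. PPP1CA, a catalytic subunit of PP1, fell in both (-2.82 and -1.48), whereas PPP2R5E, a B56 subunit of PP2A, rose in both (1.99 and 1.47). The interval of PPP1CA in the file exceeds the gene. Of the 8 other Aurora kinase genes and activators, 4 were higher in mitosis without IP and 0 lower. TPX2, the activator of Aurora A, went from 29.9 to 132 FPKM without IP and from 30.3 to 36.9 FPKM in the IP, and its log2 fold change of the IP in mitosis was -1.82. BORA, another activator, rose with the IP (1.30 in interphase and 1.67 in mitosis), but its interval in the file exceeds the gene.

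BIRC5 belongs to the IAP family (inhibitors of apoptosis) by its BIR domain. The list of this family had 6 measured genes, 1 of which, DIABLO, encodes an antagonist of IAP proteins, and BIRC7 was not among the 13471 genes. The interval of DIABLO in the file exceeds the gene, so reads of neighbours may be included. In the interphase IP 4 of the 6 were higher and 1, DIABLO, was lower, and in the mitotic IP all 6 were called higher, with medians of 1.16 and 0.83. The count was 5 with only the compared groups in the fit. NAIP, which lies near the floor with means of 0.0806 FPKM without IP and 0.225 in the IP, had an adjusted p of 0.0477 in mitosis. XIAP, the caspase inhibitor, had 1.72 and 1.19, BIRC6 had 1.68 and 1.10, and BIRC2 had 1.55 and 1.07, while BIRC5 had -1.39 and -1.003. With length and GC trends removed, the IAP medians were 0.06 and 0.50, with 3 higher and 2 lower in interphase and 4 higher and 1 lower in mitosis.

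Of 18 transcription regulators of G2/M genes, 8 rose and 5 fell between interphase and mitosis without IP (median 0.25). LIN9, a subunit of the MuvB complex, was higher (1.29), as was RBL1, the gene of p107 (1.08). CDKN1A, the gene of the inhibitor p21, fell by 1.94. FOXM1, the gene of an activator of G2/M transcription, had a log2 fold change of 0.93, and its interval in the file exceeds the gene, as does that of CCNE2. Of 10 S phase markers, 2 were higher and 6 lower in mitosis without IP (median -0.65), and the cyclin E genes CCNE2 (-2.18) and CCNE1 (-1.58) fell most.

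**Figure D4:**
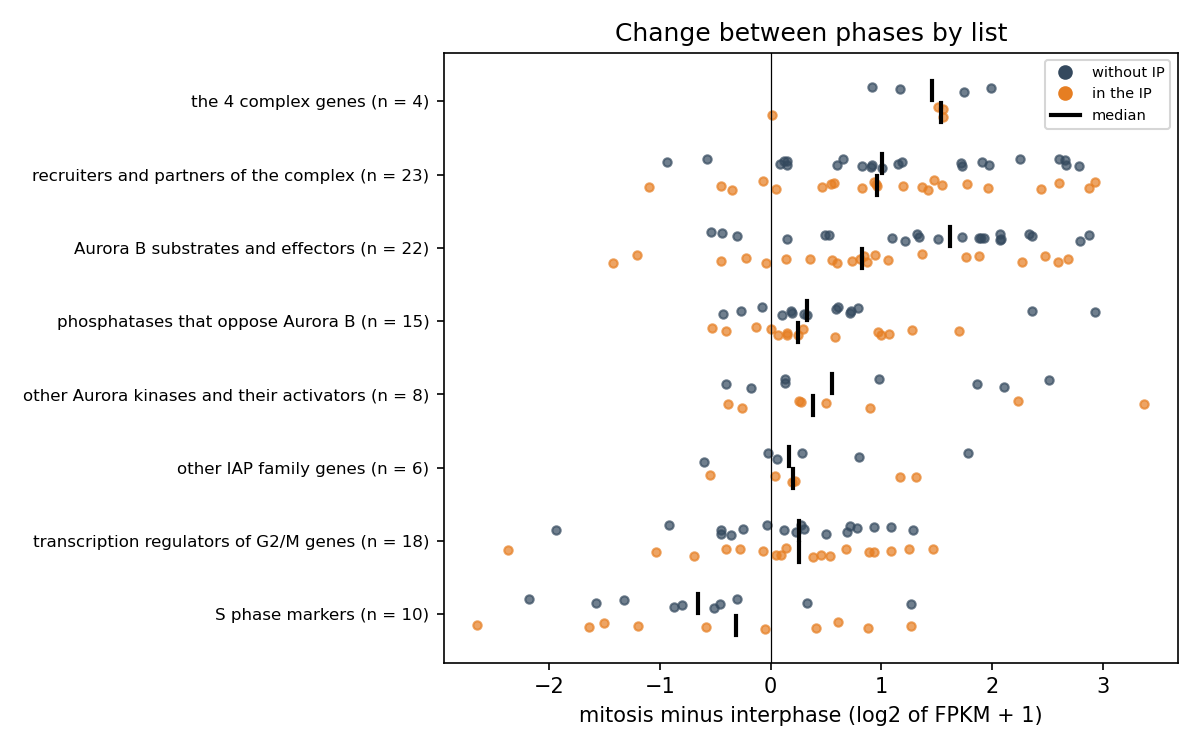
Log2 fold change between mitosis and interphase without IP (dark) and in the IP (orange), 1 point for each gene of each list, with the list's median as a black bar. The 4 complex genes lie between 0.92 and 1.99 without IP, and in the IP 3 of them lie between 1.51 and 1.56 and INCENP at 0.01.

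**Figure D5:**
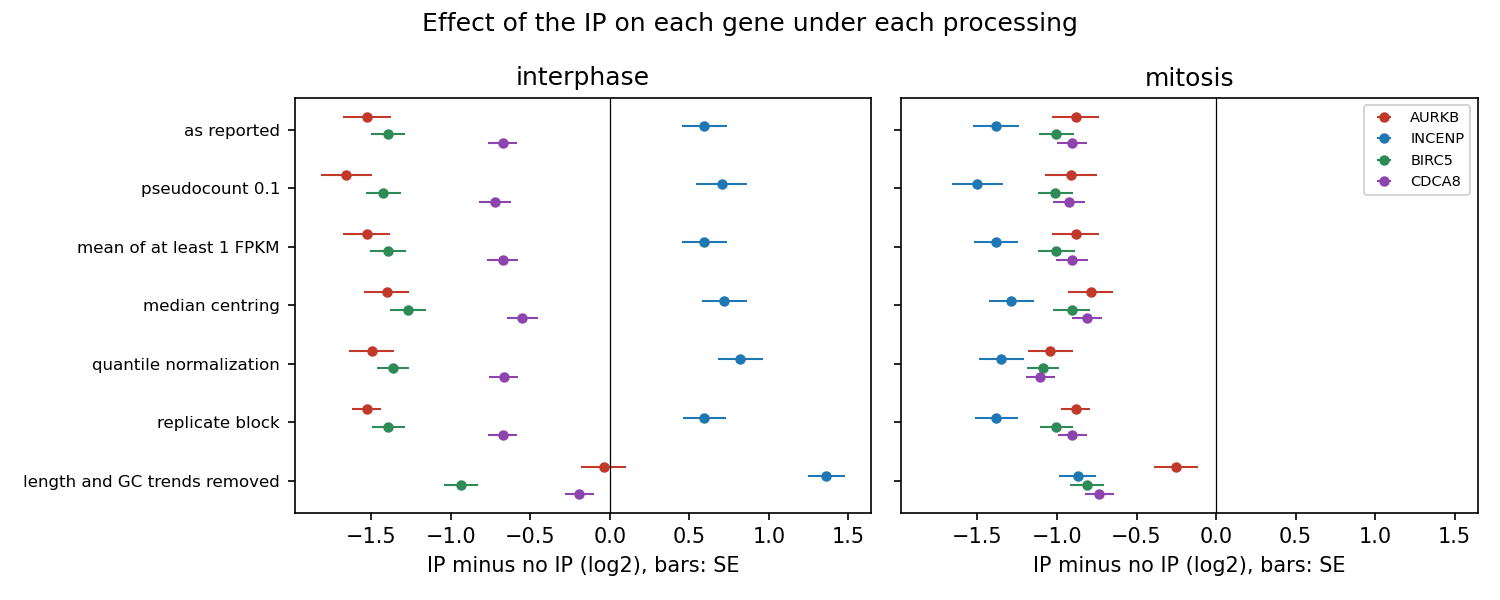
Log2 fold change of the IP with its SE for each of the 4 genes under each processing, in interphase (left) and in mitosis (right). INCENP keeps its opposite signs in every setting shown, and AURKB moves to -0.04 in interphase and -0.25 in mitosis with length and GC trends removed.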

How the data were processed

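RNA depleted of ribosomal RNA was sequenced from 8 directional libraries of hTERT-RPE1 cells, 2 in each of 4 groups. The authors deposited FPKM values for each library in a gene table on build hg38, and ratio columns, which are quotients of these values, per the file headers. The quotients were recomputed and 0 values differed by over 1e-06. TopHat and StringTie are named in the submitters' processing notes, without versions or roles. How reads shared by several genes were treated is not given in the sources used here. The deposited lncRNA table, on another build, was not used.

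Values were tested with limma 3.58.1 (R 4.3.3; eBayes with trend) on log2(FPKM + 1), with all 8 libraries in 1 fit, 1 coefficient per group, leaving 4 residual degrees of freedom. All 13471 genes entered, and the replicate number was not a term. P-values were adjusted by Benjamini-Hochberg within each of 5 comparisons, with calls at an adjusted p below 0.05. The script was tested on simulated data. Genes were matched to GENCODE 29 by symbol (12678) or older symbol (441), and 352 were unmatched. The absolute depth is unknown. Relative depth was read from the common step of values below 0.3 FPKM, in 31 to 101 genes per library. Named genes are the 4 members, AURKA, HNRNPU, the 3 nearest profiles of each member and, from each list and comparison, up to 3 calls with the largest change whose replicate pairs share its sign; other list genes named for their role (HASPIN, PLK1, FOXM1) were chosen after their values were seen. The members and the lists were chosen with earlier results of these data known. Alternatives were a pseudocount of 0.1, a mean of at least 1 FPKM, median centring, quantile normalization, the replicate block, only the compared groups in the fit, removal of length and GC trends (splines with 5 degrees of freedom each), and leaving out each library.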

Additional observations from a re-analysis of the deposited data

Results flagged for a closer look

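The effect of the IP differed between mitosis and interphase by the interaction test for the following genes, among others. Values are the log2 fold change in mitosis minus that in interphase (limma, adjusted p below 0.05). Among the complex genes these were INCENP (-1.98) and AURKB (0.64). AURKA had 0.86 and HNRNPU -0.75.

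From each pathway list, only the calls with the largest change are named, and other list genes also passed. Among the named genes, the IP effect was lower in mitosis for MKI67 (-2.63), KIF4A (-2.28), BUB1B (-2.13), TFDP1 (-2.12), SGO1 (SGOL1 in the file, -2.04), KIF2C (-1.84), TPX2 (-1.84), KIF20A (-1.67), TOP2A (-1.53), CEP192 (-1.36), CDCA2 (-0.66), BIRC6 (-0.58) and XIAP (-0.53). It was higher in mitosis for DIABLO (1.77), PPP1CA (1.35), PCNA (1.27), CDKN1A (1.25), AURKAIP1 (1.08), LIN37 (1.05), CDC45 (0.92) and CDT1 (0.92). The named genes do not show the balance of directions within a list. Recruiters and partners had 6 genes called higher and 4 lower, but only lower ones are named. Substrates and effectors had 2 called higher and 10 lower, again with only lower ones named. The balance of recruiters and partners depended on the setting, with 5 higher and 5 lower after median centring and 5 and 6 after quantile normalization. File intervals of DIABLO, PPP1CA, BUB1B and KIF20A exceed the annotated gene, so reads of neighbours may be included. With length and GC trends removed, 9 of the genes named here missed the threshold. The sign turned for AURKB (-0.21), BIRC6 (0.12), XIAP (0.21) and HNRNPU (0.053), and AURKAIP1, CDCA2, LIN37, PCNA and PPP1CA kept their sign. After quantile normalization AURKB and PCNA missed it. Leaving out 1 library also ended some calls, among them that of AURKB in 4 of the 8 fits (0.47 to 0.56). CDCA2 missed the threshold without each library other than replicate 1 of interphase without IP and replicate 2 of the mitotic IP, with -0.71 to -0.46. PCNA missed it without replicate 1 of interphase without IP (1.10), replicate 2 of the interphase IP (1.14) or replicate 1 of mitosis without IP (0.96). XIAP missed it without replicate 1 of interphase without IP (-0.50) or replicate 2 of mitosis without IP (-0.49).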

How the results depend on the processing

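With length and GC trends removed, AURKB had -0.038 for the IP in interphase, -0.25 for the IP in mitosis and -0.21 for the difference between phases, CDCA8 had -0.19 for the IP in interphase and -0.54 for the difference, and the cause was not tested. Members called lower in the interphase IP then numbered 1, and for the difference 0 were higher and 2 lower. Quantile normalization gave the same counts for the difference, 0 higher and 2 lower, with 0.45 for AURKB and -0.44 for CDCA8. For INCENP, mitosis against interphase in the IP, close to 0 and not called, turned to -0.10 with median centring, -0.10 with quantile normalization and -0.15 with length and GC trends removed. Among list genes and HNRNPU, length and GC removal turned the difference of BIRC6 (0.12), XIAP (0.21) and HNRNPU (0.053), and for HNRNPU also the IP in interphase (-0.68), in mitosis (-0.63) and mitosis against interphase in the IP (0.22); quantile normalization turned HNRNPU in mitosis (-0.10). For mitosis against interphase without IP, some small list counts moved by 1. Recruiters and partners called lower were 1 with quantile normalization or length and GC trends removed, and substrates called lower were 2 with the latter. Phosphatases called lower were 1 with median centring, length and GC trends removed or only the compared groups. S phase markers called higher were 1 with median centring. Other counts moved more. S phase markers called lower were 6 as reported and 8 with median centring or quantile normalization. The other Aurora kinase genes and activators called higher were 4 as reported and 6 with length and GC trends removed. Median centring moved the median of all genes by 0.12 for the IP in interphase and by -0.11 for mitosis against interphase in the IP.

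Leaving out 1 library at a time gave 0.47 to 0.82 for the difference of AURKB, 0.30 to 0.48 for that of BIRC5, -0.14 to 0.16 for INCENP between phases in the IP, and 0 to 1 members called higher for the difference. Apart from these, the results of the 4 genes kept their direction and side of the threshold in each fit run. With the replicate number as a block, the limma adjusted p was 0.0037 for the difference of AURKB and 0.0541 for that of BIRC5, and no call of the 4 genes changed. Several list counts moved with the block. Of the 6 IAP family genes 5 instead of 6 were called higher in the mitotic IP, and of the phosphatases 8 instead of 6. Recruiters and partners called lower for the difference were 6 instead of 4. The replicate differences of the groups correlated across genes at 0.0883 to 0.528, and the labels give only a number. The absolute depth is unknown, so no counting error can be given for INCENP at 3.64 FPKM, the lowest value among the 4 genes.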
